A study of Mus musculus with 6 samples.

Results

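Oxidative phosphorylation, the production of ATP by the respiratory chain of mitochondria, was described in mouse crypt epithelium at the level of the nuclear genes that encode it. The genes were taken by symbol, as every gene of the deposited table whose name starts with Nduf, Uqcr, Cox4 to Cox8 or Atp5, together with Sdha, Sdhb, Sdhc and Sdhd. The rule gave 94 genes of 24930 in the table, and it left out 0 symbols marked as pseudogenes by -ps. Of the 94, 88 averaged 1 unit or more across the 6 libraries and were tested. The other 6 were the low or absent isoforms Cox4i2, Cox6a2, Cox7b2, Cox8b, Cox8c and Ndufa4l2. The rule uses symbols alone, with no measured value in it.

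RNA came from the primary epithelium of mouse crypts, the pits of the intestinal wall that house its stem cells. 3 libraries were made from β-catenin GOF/+ crypts, in which 1 allele of the β-catenin gene carried an induced gain-of-function mutation, and 3 from control crypts, all at day 4 after induction. The mutant columns are headed exonhet, and were taken as the β-catenin GOF/+ group because the other columns are headed Control. The labels do not give the genotype or treatment of the controls beyond that word, the Cre driver or inducing agent, the strain, age or sex, or whether each library is a separate animal. P-values thus rest on the spread from library to library, part of which may be technical. Values are the authors' normalized abundance per gene, called units below, and differences between the groups are on the log2(value + 1) scale.

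The respiratory chain is built of 4 complexes in the inner mitochondrial membrane that pass electrons to oxygen, most of them pumping protons, and complex V, the ATP synthase, uses the proton gradient to make ATP. Complex I takes electrons from NADH at its N module, hands them to ubiquinone at its Q module and pumps protons through its membrane arm. Complex II takes electrons from succinate, complex III passes them from ubiquinol to cytochrome c, and complex IV, cytochrome c oxidase, passes them to oxygen. In the intestine, differentiated enterocytes and crypt stem cells are both known to rely on mitochondrial respiration, while Paneth cells are described as more glycolytic. The subunits encoded by mitochondrial DNA are not analysed here.

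The libraries differed in the levels of cell type markers. The genes of the epithelial marker list summed to 4028, 3044 and 4576 units in mutant libraries 1 to 3, against 2742, 3062 and 3427 units in control libraries 1 to 3. Goblet cell markers summed to 5630, 5600 and 6033 units in mutant and 6028, 5031 and 5709 units in control libraries. Tff3 and Agr2 made up most of the goblet sum. Of the 5 goblet genes, 4 were above 0 in log2 difference, among them Fcgbp (0.60) and Muc2 (0.50), and Clca1 was below (-0.68), all with overlapping groups. Paneth cell defensins took 16.9, 37.4 and 11.1% of all units in the mutant and 49.9, 34.5 and 24.8% in the control libraries. Xist and Y-linked genes showed 1 mutant and 2 control libraries to be male and 3 to be female, which makes at least 2 animals in each group. Median ratios to the all-library mean lay between 0.990 and 1.01. The authors had already normalized the values, so ratios near 1 cannot test whether the libraries share a scale. All units together summed to 645225, 940163 and 663888 in mutant libraries 1 to 3, against 1268771, 886363 and 756929 in control libraries 1 to 3. The values behave as reads per length, and at an effective length of 500 bases 100 units stood for about 651 to 1047 reads, with a fragment length of 200 bases assumed.

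The median tested member stood at 186 units in mutant and 191 units in control crypts, where the median of all tested genes was 12.4 units in mutant and 12.1 units in control crypts. Levels per length differed between the complexes in the same order in both groups. Complex IV had a median of 553 units in mutant and 575 units in control crypts over 13 tested genes, and complex V of 438 units in mutant and 510.0 units in control crypts over 17 genes. Complex III followed with 340.3 units in mutant and 337 units in control crypts over 8 genes, and complex II with 236 units in mutant and 258 units in control crypts over 4 genes. The 37 genes grouped as complex I subunits, among them Ndufb4c, annotated as a processed pseudogene, had a median of 140.1 units in mutant and 142 units in control crypts. The 8 complex I assembly factors named Ndufaf, which help to build the complex and are not part of it, were far lower, at 12.5 units in mutant and 12.2 units in control crypts. Within complex I the N module, Q module and membrane arm lay close together, at 136, 136 and 142 units in mutant crypts and 152, 145 and 138 units in control crypts, well within the spread among the genes of each. The group called membrane arm here took all remaining Nduf subunits, so it may hold genes outside that arm. Single genes of neighbouring complexes overlapped widely, so the order holds for medians.

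**Figure D1:**
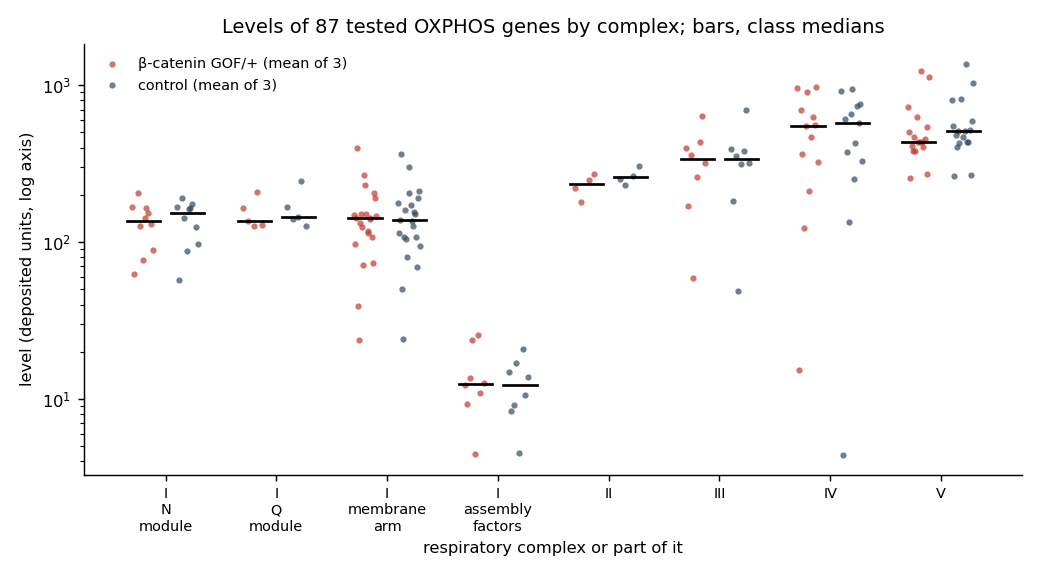
Mean level of each of 87 tested OXPHOS genes in deposited units on a log axis, by complex, with β-catenin GOF/+ in red to the left of control in blue; each point is the mean of 3 libraries and bars are class medians. Assembly factors have medians of 12.5 units in mutant and 12.2 units in control crypts, while complexes IV and V have medians of 438 to 575 units.

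No gene of the respiratory chain passed the test between mutant and control crypts. Among all 11837 genes tested with limma, 2 had an adjusted p under 0.05, or 0.0169%, both lower in mutant crypts, and 0 of the 88 members did. At an unadjusted p under 0.05, limma gave 984 of all genes, or 8.31%, with 4.72% higher and 3.59% lower. It gave 3 members, or 3.41%, all higher in mutant crypts: Ndufaf3, Ndufaf8 and Ndufs5. The lowest adjusted p of a member in limma was 0.589. All 3 mutant libraries lay above all 3 control libraries for 5 members and below them for 0, where 16.7% of all tested genes did not overlap in one direction or the other, 8.34% above and 8.37% below. The 5 were Ndufs5, Ndufb6, Ndufa13, Ndufaf3 and Ndufaf8, subunits of complex I or its assembly factors, and at 5.68% of members they were fewer than that background. In bulk samples such as these, fewer cells of a type and less RNA per cell cannot be told apart.

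The differences were small for most genes, and their intervals show how large they could be. The log2 difference was above 0 in 30 and below 0 in 58 of the 88 members, with a median of -0.09, beside a median of -0.02 over all tested genes. It ran from -0.38 for Atp5k to 1.17 for Cox6b2. The 95% interval of limma lay within a log2 of 1 on either side of 0 for 86 of 88 members, or 97.7%, and for 76.5% of all tested genes. The 2 exceptions were Ndufs5 and Cox6b2. The members also stood at higher levels, with a median of 191 units in control crypts against 12.1 units over all tested genes. The part of level in the width of the intervals was not tested. A difference of under 1.5-fold in either direction held over the whole interval for 35 members, or 39.8%, and for 37.0% of all tested genes. For the other members a difference of that size lies inside the interval.

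**Figure D2:**
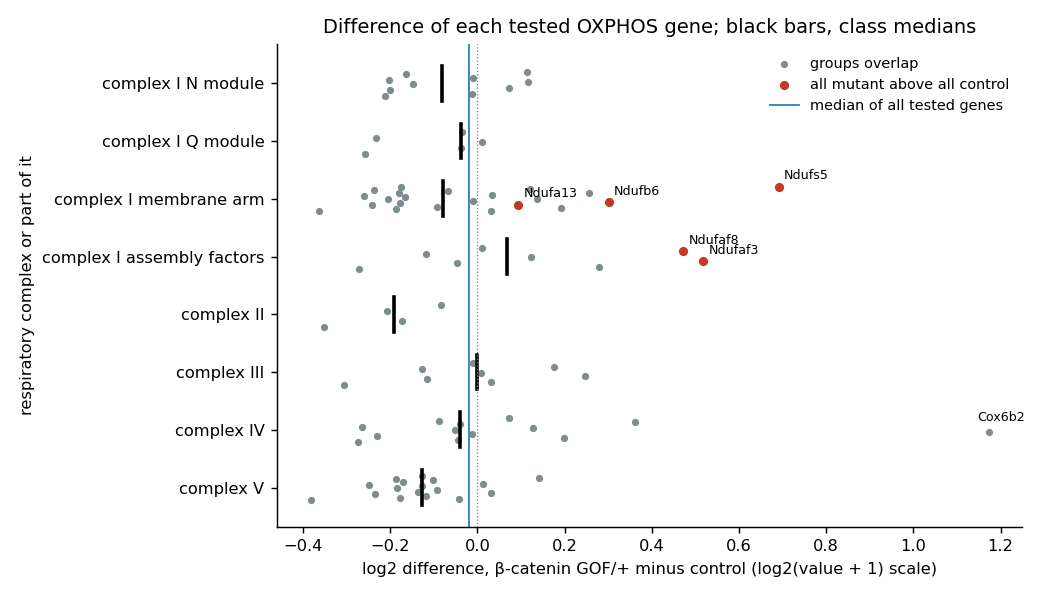
Log2 difference of each tested OXPHOS gene, β-catenin GOF/+ minus control on the log2(value + 1) scale, by complex; black bars are class medians, the blue line is the median of all tested genes and red points are genes whose mutant libraries all lie above all control libraries. The 5 red points, 5.68% of members against 16.7% of all tested genes apart in either direction, are subunits of complex I or its assembly factors. Cox6b2 at 1.17 stands apart from the other genes of complex IV.

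Most of the genes were low in the same library within each group. The median member stood at -0.03, 0.10 and -0.27 in mutant libraries 1 to 3 on the log2 scale relative to the control mean, against -0.19, 0.10 and 0.07 in control libraries 1 to 3. Mutant library 3 was the lowest mutant library for 70 of 88 members, or 79.5%, against 44.7% of all tested genes. Control library 1 was the lowest control library for 78 members, or 88.6%, against 32.4% of all tested genes. The medians by complex moved with these libraries as well. Without mutant library 3 the median log2 difference was 0.01 in the N module, 0.02 in the Q module, 0.05 in the membrane arm, 0.22 in the assembly factors, 0.00 in complex II, 0.09 in complex III, 0.03 in complex IV and -0.02 in complex V. Without that library the median difference of the members was 0.03, with 55 of 88 above 0, and without control library 1 it was -0.18, with 20 of 88 above 0.

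**Figure D3:**
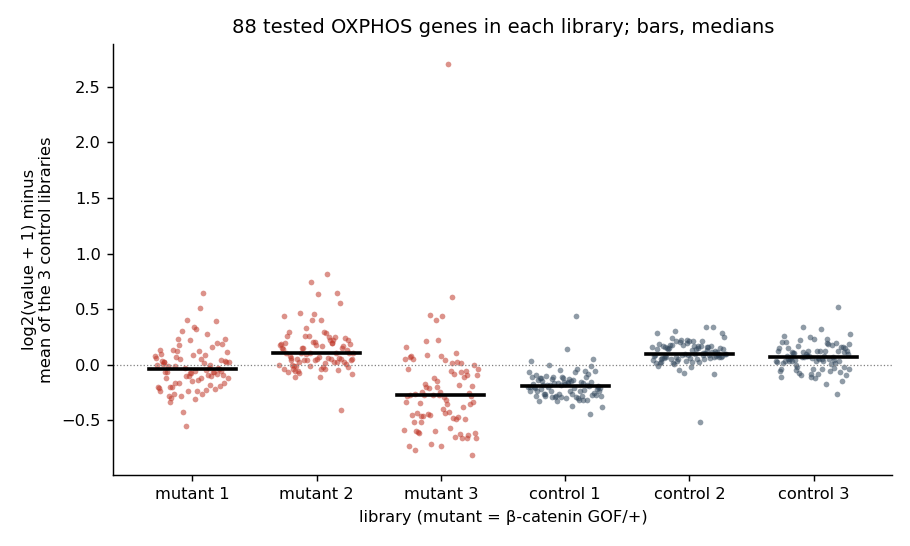
Each of the 88 tested OXPHOS genes in each library on the log2(value + 1) scale relative to the control mean, mutant libraries in red on the left and control libraries in blue on the right; bars are medians. Mutant library 3 at -0.27 and control library 1 at -0.19 lie lowest, and the other 4 medians lie between -0.03 and 0.10.

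The low values of mutant library 3 were uneven across the chain. It was the lowest mutant library for 16 of 17 genes of complex V and all 4 of complex II, but for 6 of 13 of complex IV. Complex II stood at -0.55 in that library and complex V at -0.38, while complex IV stood at -0.09. Control library 1 was the lowest control library for all 13 tested genes of complex IV, all 8 of complex III and 16 of 17 of complex V, but for only 2 of 8 assembly factors.

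Marker genes of crypt cell types also differed between these libraries. Enterocyte markers summed to 15397, 7250 and 29246 units in mutant libraries 1 to 3, against 4924, 6883 and 12838 units in control libraries 1 to 3, so mutant library 3 was highest and control library 1 lowest. Proliferation genes summed to 396, 530 and 231 units in the mutant and 436, 607 and 399.7 units in the control libraries, and stem cell markers to 679.9, 902 and 145 units in mutant and 997, 1422 and 609.7 units in control libraries. Both lists were lowest in mutant library 3, where 8 of 8 proliferation genes and 5 of 6 stem cell genes had the lowest mutant value. Immune markers summed to 768, 363 and 1587 units in mutant and 769, 466 and 1162 units in control libraries. Nearly all of that was Cd74 alone, at 748, 337 and 1510 units in mutant and 734, 452 and 1129 units in control libraries. The other immune genes had at most 31.7 units in a library, so the sum is not a measure of immune cells. Tuft cell markers summed to 15.5, 12.7 and 15.9 units in mutant and 45.2, 26.1 and 16.9 units in control libraries. Stromal markers were low everywhere but higher in all mutant libraries. They summed to 24.1, 19.9 and 43.2 units in mutant and 7.20, 4.97 and 8.05 units in control libraries. All mutant libraries lay above all control libraries for all 6 tested genes of the list, against 8.34% of all tested genes. The smallest limma adjusted p among the 6 was 0.0935. The part of these lists in the levels of the respiratory chain was not tested.

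As a share of all units, the members made up 3.92, 2.96 and 3.30% in mutant libraries 1 to 3 and 1.75, 3.18 and 3.68% in control libraries 1 to 3. Outside the defensins, which took up to 49.9% of a library, their share was 4.71, 4.72 and 3.71% in mutant and 3.50, 4.86 and 4.88% in control libraries. The groups overlapped on both measures. The members' units summed to 24984 ± 2961 in mutant and 26099 ± 3326 in control crypts (SD, n = 3 each).

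In the N module of complex I, which binds NADH and carries the flavin, 3 genes were above and 7 below 0, with a median log2 difference of -0.08. Ndufa6, a small accessory subunit and the most abundant gene of the group, had 189, 226 and 199 units in mutant libraries 1 to 3, against 155, 191 and 226 units in control libraries 1 to 3. Its groups overlapped, with a log2 difference of 0.11 ± 0.19 (SE) and a limma adjusted p of 0.818. Ndufv3, an accessory subunit beside the flavin site, had 134, 174 and 119 units in mutant and 145, 169 and 177 units in control libraries, a log2 difference of -0.21 ± 0.19 (limma adjusted p = 0.674). Ndufs6, which is known to bind zinc, had 154, 177 and 126 units in mutant and 153, 197 and 173 units in control libraries, with mutant library 3 the lowest of all 6. Its log2 difference was -0.20 ± 0.19 (limma adjusted p = 0.683).

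In the Q module, where ubiquinone is reduced, 1 gene was above and 4 were below 0, with a median of -0.04. Ndufs8, which holds iron-sulphur clusters on the way to ubiquinone, had 129.8, 164 and 86.6 units in mutant and 127, 167 and 140.4 units in control libraries, a log2 difference of -0.23 ± 0.26 (limma adjusted p = 0.722). Mutant library 3 was the lowest of all 6, and without it the log2 difference was 0.02.

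In the membrane arm, 9 genes were above and 13 below 0, with a median of -0.08. Ndufb9, its most abundant gene, had 410.0, 403 and 386 units in mutant and 296, 382 and 423 units in control libraries, a log2 difference of 0.14 ± 0.19 (limma adjusted p = 0.786). Ndufb6 had 125.172, 147 and 125.045 units in mutant libraries 1 to 3, against 99.0, 125.018 and 98.9 units in control libraries 1 to 3, so that the groups are apart by the gap between mutant library 3 and control library 2 alone. The log2 difference was 0.30 ± 0.17, with an interval of -0.09 to 0.69 (limma adjusted p = 0.590). In the GRCm38 annotation 257 of its exonic bases, or 39.0%, overlap Smim27 on the opposite strand, which had 12.6, 17.2 and 8.09 units in mutant and 15.2, 13.9 and 11.9 units in control libraries. Whether reads were counted by strand is not given in the sources used here. Of 93 members in that annotation, 25 share exonic bases with another gene, among them Ndufb9 (28.55%), Uqcrc2 (26.58%), Atp5j (16.32%) and Ndufaf3 (3.23%). Ndufa13, known also as GRIM-19, was apart by little, at 71.9, 78.0 and 71.6 units in mutant and 66.0, 71.1 and 70.2 units in control libraries. Its log2 difference was 0.09 ± 0.13 (limma adjusted p = 0.777), and 375 of its exonic bases overlap Tssk6, which was under 1 unit in every library.

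Ndufs5, a subunit on the intermembrane side of the membrane arm, had the largest difference among complex I genes, and the table also holds a near copy of it. It had 142, 161 and 139 units in mutant libraries 1 to 3, against 124, 63.0 and 95.7 units in control libraries 1 to 3. All mutant values lay above all control values, with a log2 difference of 0.69 ± 0.25, an interval of 0.09 to 1.29 and a limma adjusted p of 0.589. BC002163, annotated as a processed pseudogene, had 0 units in all mutant libraries and in control library 1, against 114 and 83.3 units in control libraries 2 and 3. Over 318 aligned bases the 2 genes differ at 2 positions with 0 gaps, T81C and A105G, with the Ndufs5 base first and positions counted from 1 at the start of the coding sequence. The stretch of coding bases 56 to 130 is shown because it holds both differences, in capitals; Ndufs5 lies at chr4:123712710-123718202 on the minus strand and BC002163 at chr16:42955631-42955949 on the plus strand of GRCm38.
Ndufs5: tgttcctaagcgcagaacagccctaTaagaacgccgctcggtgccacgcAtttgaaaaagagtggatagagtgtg
BC002163: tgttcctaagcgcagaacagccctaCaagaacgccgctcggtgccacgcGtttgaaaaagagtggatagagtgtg

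Summed, the pair had 142, 161 and 139 units in mutant libraries 1 to 3, against 124, 177 and 179 units in control libraries 1 to 3. The sums overlapped, at 147 ± 11.6 units in mutant and 159.7 ± 31.4 units in control crypts (SD, n = 3 each), with a log2 difference of -0.10 ± 0.19 (SE) and a limma adjusted p of 0.852. The direction of the Ndufs5 difference therefore turned when the copy was added, a setting chosen after seeing the data. BC002163 held 64.3% of the summed units in control library 2, 46.5% in control library 3 and 0% in the other 4 libraries.

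**Figure D4:**
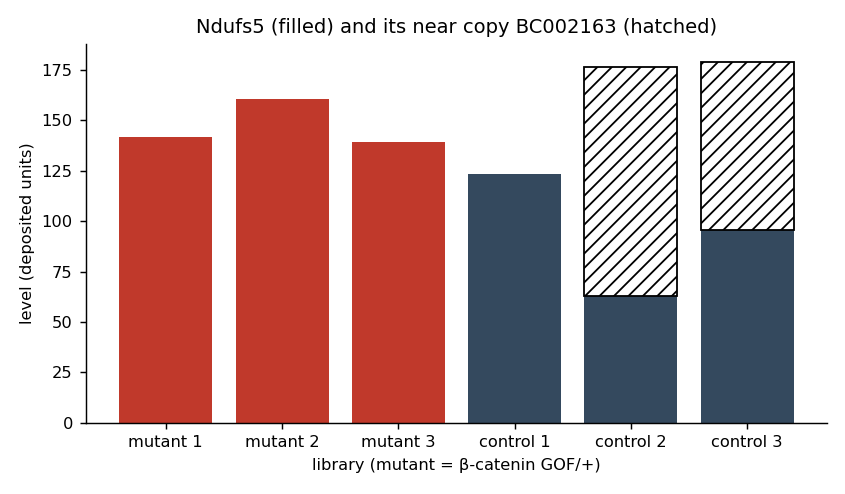
Level of Ndufs5 (filled bars) with that of its near copy BC002163 (hatched) stacked on it, in deposited units, in each library, mutant in red on the left and control in blue on the right. The copy is at 0 in all but control libraries 2 and 3, where Ndufs5 alone is lowest and the stacked sums of 177 and 179 units are highest.

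Other genes of the chain have near copies as well. By the longest coding sequence of each of 92 annotated members, 20 have at least 1 other gene with 95% identity over 80% of its length, 38 copies in all, and 4 of the copies are in the table. For Cox7c these are Gm12338 and Gm10012, for Ndufb4 it is Ndufb4c, itself one of the members though annotated as a processed pseudogene, and for Ndufs5 it is BC002163. Cox7c, a small subunit of complex IV, had 708, 671 and 699 units in mutant and 514, 747 and 572 units in control libraries, and with its copies 763, 804 and 765 units in mutant and 648, 891 and 793 units in control libraries. Its log2 difference was 0.20 alone and 0.01 with the copies. By whole transcripts, 0 members had such a copy.

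The assembly factors of complex I had a median log2 difference of 0.07, with 5 genes above and 3 below 0. The median was -0.05 without mutant library 2 and 0.22 without mutant library 3, so its sign rested on 1 library. Ndufaf3, which acts early on the Q module and the arm that joins it, had 12.3, 15.9 and 12.4 units in mutant libraries 1 to 3, against 8.76, 8.59 and 10.0039 units in control libraries 1 to 3. The groups did not overlap, and the means of 13.5 ± 2.07 units in mutant and 9.12 ± 0.771 units in control crypts (SD, n = 3 each) differed by a log2 of 0.52 ± 0.15 (interval 0.16 to 0.87, limma adjusted p = 0.589). Ndufaf8, a partner of Ndufaf5 in assembly, had 21.5, 26.8 and 23.2 units in mutant and 18.7, 16.6 and 15.4 units in control libraries, likewise apart. Its means were 23.8 ± 2.67 units in mutant and 16.9 ± 1.67 units in control crypts (SD, n = 3 each), a log2 difference of 0.47 ± 0.14 (interval 0.13 to 0.81, limma adjusted p = 0.589). Both are low genes, where 10 units stood for about 65.1 to 104.7 reads at an effective length of 500 bases, and neither passed the test over all genes. Ndufaf2, the most abundant of the factors, had 27.4, 30.7 and 19.1 units in mutant and 19.4, 26.4 and 17.1 units in control libraries, with overlapping groups and a log2 difference of 0.28 ± 0.23 (limma adjusted p = 0.654). The other 5 factors had log2 differences between -0.27 and 0.12 with overlapping groups.

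Assembly factors of the other complexes and of complex I under other names, such as Sco1, Surf1 and Timmdc1, were examined as a separate list. Of 37 tested, 15 were above and 22 below 0, with a median log2 difference of -0.03, and 0 past the adjusted threshold of limma. The groups did not overlap for 4 above and 1 below, or 13.5%, against 16.7% of all tested genes. Sco2, which delivers copper to complex IV, had the smallest p of them, with 4.77, 6.55 and 7.13 units in mutant libraries 1 to 3, against 3.90, 3.10 and 2.54 units in control libraries 1 to 3. All mutant values lay above all control values, with a log2 difference of 0.77 ± 0.20 (limma adjusted p = 0.589).

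**Figure D5:**
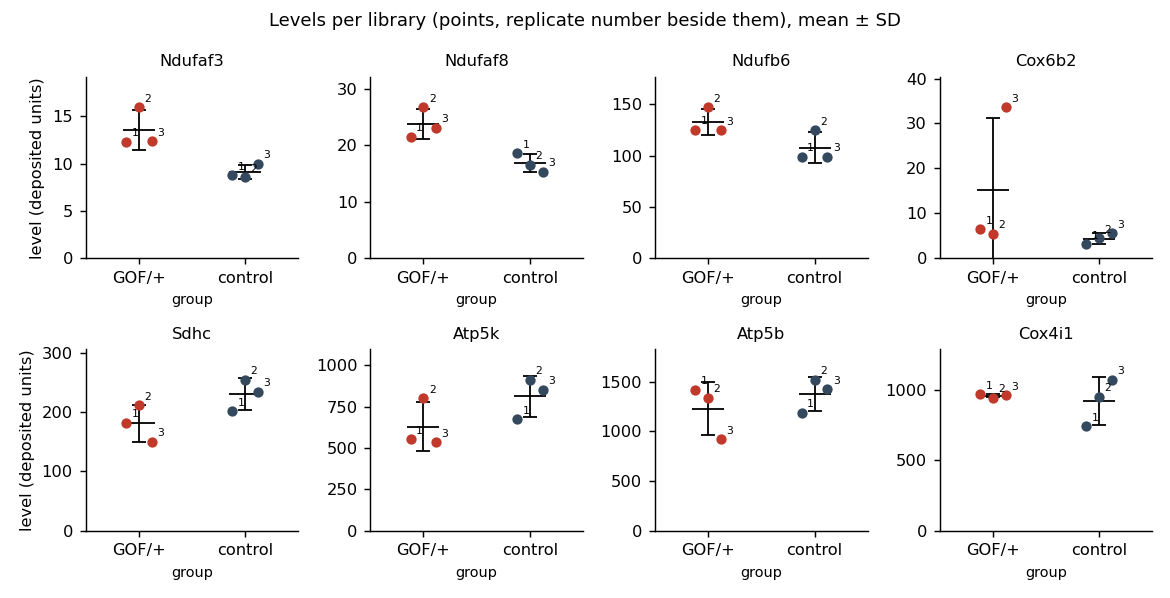
Levels in deposited units of 8 OXPHOS genes, β-catenin GOF/+ libraries in red to the left of control libraries in blue, with replicate numbers beside the points and lines for the mean and 1 SD (n = 3 each); each panel has its own axis from 0. Ndufaf3 and Ndufaf8 do not overlap between groups, mutant library 3 stands apart for Cox6b2, and Sdhc, Atp5k and Atp5b have mutant library 3 lowest.

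Complex II, which is also an enzyme of the citric acid cycle, had a median log2 difference of -0.19, with all 4 genes below 0. The median was 0.00 without mutant library 3 and 0.05 with array weights, so the value rested on that library. Sdhc, a membrane anchor of the complex, had 182, 212 and 150.2 units in mutant libraries 1 to 3, against 202, 255 and 235 units in control libraries 1 to 3. Mutant library 2 overlapped the controls, and the means of 181 ± 30.9 units in mutant and 231 ± 26.9 units in control crypts (SD, n = 3 each) differed by a log2 of -0.35 ± 0.19 (interval -0.81 to 0.10, limma adjusted p = 0.590). Sdhd, the other anchor and the most abundant of the 4, had 288, 315 and 217 units in mutant and 266, 319 and 332 units in control libraries, a log2 difference of -0.17 ± 0.21 (limma adjusted p = 0.746). Sdha, which carries the flavin, and Sdhb, which carries the iron-sulphur clusters, had log2 differences of -0.21 and -0.08.

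In complex III, 4 genes were above and 4 below 0, and no gene was apart between the groups. Uqcrc2, a core protein, had 293, 307 and 177 units in mutant and 259, 347 and 338 units in control libraries. Mutant library 3 stood well below the other 5, and the log2 difference was -0.31 ± 0.26 (interval -0.93 to 0.32, limma adjusted p = 0.659). Uqcrq, a small subunit near the ubiquinone sites, had 54.2, 76.6 and 46.3 units in mutant and 46.7, 51.6 and 47.5 units in control libraries, with mutant library 2 highest and a log2 difference of 0.25 ± 0.20 (limma adjusted p = 0.651). Uqcrh, the hinge protein beside cytochrome c1, was the most abundant, at 629, 704 and 569.9 units in mutant and 548, 772 and 759 units in control libraries. Its log2 difference was -0.12 ± 0.22 (limma adjusted p = 0.847).

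In complex IV, 5 tested genes were above and 8 below 0, with a median of -0.04. Cox4i1, the common form of subunit 4, had 967, 943 and 959 units in mutant libraries 1 to 3, against 739, 949.8 and 1069.7 units in control libraries 1 to 3. The mutant libraries were within a narrow range, and the log2 difference was 0.07 ± 0.22 (limma adjusted p = 0.908). Cox6a1, the common form of subunit 6a, had 932, 948 and 1024 units in mutant and 615, 727 and 953 units in control libraries, where only control library 3 overlapped the mutant range. Its means were 968 ± 49.0 units in mutant and 765 ± 172 units in control crypts (SD, n = 3 each), a log2 difference of 0.36 ± 0.23 (limma adjusted p = 0.605). Ndufa4, named for complex I but now placed in complex IV, had 574, 664 and 421 units in mutant and 541, 706 and 730.3 units in control libraries, a log2 difference of -0.27 ± 0.25 (limma adjusted p = 0.681). Cox7a2l, a factor that joins complexes III and IV into supercomplexes, averaged 146 ± 34.6 units in mutant and 183 ± 32.7 units in control crypts (SD, n = 3 each). Its log2 difference was -0.33 ± 0.23 (limma adjusted p = 0.616).

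Complex IV has forms of its subunits known from muscle, lung or testis, and most were near 0 in both groups. Cox7b2, Cox8b and Cox8c were at 0 in all 6 libraries. Cox4i2, known from lung, had 0, 0 and 0.291 units in mutant and 0, 0.376 and 0.0905 units in control libraries. Cox6a2, known from heart and skeletal muscle, had 0.285, 0 and 0.802 units in mutant and 0.568, 0.414 and 1.197 units in control libraries. Ndufa4l2, known for its induction under hypoxia, was at 0 in 2 of 3 libraries of each group and under 0.1 units in the others. Cox7a1, the form known from heart and skeletal muscle, was an exception, at 149, 97.7 and 125 units in mutant and 95.4, 123 and 187 units in control libraries. It made up 33.0, 20.7 and 29.9% of the summed units of Cox7a1 and Cox7a2 in mutant libraries, against 26.5, 27.0 and 32.6% in control libraries. The groups overlapped, with a log2 difference of -0.09 ± 0.28 for Cox7a1 (limma adjusted p = 0.913). The list of 8 smooth and striated muscle markers had 2 tested members. It summed to 16.9, 14.8 and 31.0 units in mutant and 4.87, 3.14 and 4.81 units in control libraries. Acta1 gave most of the mutant sums, at 11.8, 11.6 and 20.5 units, against 2.03, 1.11 and 1.34 units in control libraries. The part of muscle tissue in the level of Cox7a1 was not tested.

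Cox6b2, a form of subunit 6b known from testis, had the largest difference of all members, and it rested on 1 library. It had 6.54, 5.52 and 33.6 units in mutant libraries 1 to 3, against 3.10, 4.48 and 5.61 units in control libraries 1 to 3. Mutant library 3 stood alone, with mutant library 2 inside the control range, and the log2 difference was 1.17 ± 0.62 with an interval of -0.29 to 2.63 (limma adjusted p = 0.589). Without mutant library 3 the log2 difference was 0.40. As a share of Cox6b1 and Cox6b2 together it was 0.75, 0.56 and 3.66% in mutant libraries and 0.40, 0.44 and 0.52% in control libraries. The common form Cox6b1 had 869, 979 and 883 units in mutant and 776, 1005 and 1069 units in control libraries, with overlapping groups.

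In complex V, 3 genes were above and 14 below 0, with a median log2 difference of -0.13 and no gene apart between groups. Atp5b, the catalytic β subunit, was the most abundant member of all, at 1418, 1337 and 921 units in mutant libraries 1 to 3, against 1186, 1518 and 1422 units in control libraries 1 to 3. Mutant library 3 alone lay below the control range, with means of 1225 ± 266 units in mutant and 1375 ± 171 units in control crypts (SD, n = 3 each) and a log2 difference of -0.18 ± 0.26 (interval -0.81 to 0.44, limma adjusted p = 0.787). Without mutant library 3 the difference was 0.01. Atp5k, subunit e at the base where ATP synthases pair up, had 551, 801 and 535 units in mutant and 673, 912 and 851 units in control libraries. Its log2 difference was -0.38 ± 0.25 (interval -0.97 to 0.21, limma adjusted p = 0.605). Atp5j, coupling factor 6 of the stalk, had 398, 470.4 and 357 units in mutant and 416, 539 and 502 units in control libraries, a log2 difference of -0.25 ± 0.20 (limma adjusted p = 0.644).

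The proton-carrying c-ring of the ATP synthase is built of 1 mature protein encoded by 3 genes, Atp5g1, Atp5g2 and Atp5g3. Atp5g3 was the most abundant in every library, at 1206, 1171 and 1026 units in mutant libraries 1 to 3 and 892, 1086 and 1115 units in control libraries 1 to 3. Atp5g1 had 408, 497 and 310.4 units in mutant and 389.7, 466 and 450.3 units in control libraries, and Atp5g2 382, 440.4 and 315 units in mutant and 393, 496 and 403 units in control libraries. Their order, Atp5g3 highest with Atp5g1 and Atp5g2 within their spread of each other, was the same in both groups. Atp5g3 gave 60.4, 55.5 and 62.1% of the summed c-ring units in mutant libraries, against 53.3, 53.0 and 56.7% in control libraries, or 59.4 ± 3.40% in mutant and 54.3 ± 2.03% in control crypts (SD, n = 3 each). Mutant library 2 lay within the control range of that share. The log2 differences were -0.13 ± 0.23, -0.19 ± 0.21 and 0.14 ± 0.21 for Atp5g1, Atp5g2 and Atp5g3, with limma adjusted p-values of 0.832, 0.722 and 0.802.

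The promoters of Atp5g3 and Atp5g1 are printed because the 2 genes encode the same ring protein at different levels. They span 250 bases before to 50 after the gene start, from RefSeq on GRCm38.p6, 5′ to 3′ on the strand of the gene, at chr2:73911277-73911576 on the minus strand for Atp5g3 and chr11:96075582-96075881 on the minus strand for Atp5g1. Capitals mark matches, on either strand, to the NRF1 motif (GCGCA, any base, GCGC), which lies just after the gene start, and to the ERRA motif TNAAGGTCA, where N is any base, which lies upstream. NRF1 and ERRA, the nuclear respiratory factor and an oestrogen-related receptor, are known regulators of respiratory genes. Atp5g1 held neither of these, nor the ETS motif CCGGAAGT or the YY1 motif AAGATGGCG. Atp5g2, at levels within the spread of Atp5g1, held 1 NRF1 match, and Atp5b, the most abundant member, held 0 matches to any of these motifs. A link between motifs and levels was not tested.
Atp5g3: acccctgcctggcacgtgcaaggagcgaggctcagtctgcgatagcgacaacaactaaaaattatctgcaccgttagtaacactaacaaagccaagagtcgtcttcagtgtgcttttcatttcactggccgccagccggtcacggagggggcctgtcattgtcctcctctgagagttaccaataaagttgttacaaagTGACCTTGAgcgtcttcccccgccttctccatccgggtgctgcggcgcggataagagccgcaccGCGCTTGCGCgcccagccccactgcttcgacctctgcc
Atp5g1: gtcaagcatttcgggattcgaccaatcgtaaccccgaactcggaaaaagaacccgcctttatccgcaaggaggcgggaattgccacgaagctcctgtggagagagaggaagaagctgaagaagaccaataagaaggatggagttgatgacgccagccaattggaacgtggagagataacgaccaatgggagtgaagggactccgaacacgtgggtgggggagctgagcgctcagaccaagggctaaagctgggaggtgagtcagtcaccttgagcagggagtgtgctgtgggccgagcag

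The motifs were also counted over 76 members with a RefSeq promoter, where a gene counted if any of its promoters held the motif. The NRF1 motif was found in 19, or 25%, against 5.188% of all 27025 genes with a promoter. The YY1 motif was found in 8 members, or 10.526%, against 1.639%, and the ERRA motif in 3, or 3.947%, against 1.432%. The ETS motif was in 5 members, or 6.579%, against 4.307%. Any of the 4 was in 30 members, or 39.474%, against 11.663% of all genes with a promoter. A match is a description of letters in this window and not of binding.

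Genes that work beside the chain likewise gave 0 members past the adjusted threshold of limma. Of 5 respiratory genes under other symbols, such as Cyc1 and Cycs, 4 were above and 1 below 0, with a median of 0.05. Cycs, cytochrome c itself, had 120.03, 139 and 181 units in mutant and 102, 122 and 115 units in control libraries, with a log2 difference of 0.36 (limma adjusted p = 0.590). Of 19 citric acid cycle genes, 7 were above and 12 below 0, with a median of -0.12. Cs, citrate synthase, the entry enzyme of the cycle, had 334, 267 and 412 units in mutant libraries 1 to 3, against 233, 234 and 266 units in control libraries 1 to 3. All mutant values lay above all control values, mutant library 2 by little, and the log2 difference was 0.45 (limma adjusted p = 0.589). Pdha1 was apart the other way, at 114, 119 and 67.2 units in mutant and 125, 162 and 125 units in control libraries. Its log2 difference was -0.48 (limma adjusted p = 0.589). The groups did not overlap for 1 gene above and 1 below, or 10.5% of the list, against 16.7% of all tested genes. Of 16 genes of mitochondrial biogenesis, 5 were above and 11 below 0, with a median of -0.19. The groups did not overlap for 0 of them above and 2 below, Polg2 and Sirt3, or 12.5%. Esrra, which encodes the oestrogen-related receptor named above, had 91.5, 70.5 and 111 units in mutant and 57.6, 62.7 and 70.9 units in control libraries, overlapping by mutant library 2, with a log2 difference of 0.49 (limma adjusted p = 0.589).

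The sexes of the libraries were unevenly spread, so the members were also compared within each. The median log2 difference of the members was -0.02 among male libraries, 1 mutant against 2 control, and -0.17 among female libraries, 2 mutant against 1 control. Control library 1, with a member median of -0.19, was male, and mutant library 3, at -0.27, was female. Sex therefore cannot be told apart from these 2 low libraries. No test was run within a sex, and the difference between the sexes was not tested.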

How the data were processed

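Per the labels' protocols, poly-A RNA was captured on beads and primed at random, and the libraries were run on Illumina instruments. The authors deposited a signal per gene, an abundance that they had normalized to a common scale. Kallisto 0.46.1, DESeq2 1.40.1 and the mm9 build are named without role or order, per the submitters' processing notes. Neither the step that made the values nor the annotation or strand setting is given in the sources used here, and the absolute depth is known only through the estimate from single-read steps in the report. Sequences and overlaps came from GRCm38, a different build, and genes were matched by symbol.

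Each value x was taken as log2(x + 1). The 11837 genes that averaged 1 unit or more were fitted together with limma 3.58.1 in R 4.3.3, with group as the single term, a mean-variance trend and Benjamini-Hochberg adjustment at 0.05. A log2 difference understates the change of low genes. Standard errors and 95% intervals are limma's. The fit was tested on simulated data before use. BLAST+ 2.17.0 served to find near copies, and matplotlib 3.10.9 under Python 3.11.15, with NumPy 2.4.6 and pandas 2.3.3, to draw the figures.

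The members and gene lists were chosen with earlier results of these data known. In each of 8 classes the 2 tested genes with the smallest p and the most abundant gene were named, with the tissue-restricted isoforms, the c-ring genes and the gene with the smallest p of each other list. Cox7c, Ndufb4, Ndufa4, Cox7a2l, Cox6b1, Sdha, Sdhb and genes apart between groups were named after their values were seen. A result that the naming rule gave is not reported here. Same-numbered libraries share no label for animal, litter or day, so the fit had no block. Alternatives changed the pseudocount, filter, scaling, weights, block, sex term and the libraries included.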

Additional observations from a re-analysis of the deposited data

How the results depend on the processing

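Members past the adjusted threshold of limma numbered 0 in the reported fit and in all 18 other fits. Over all genes, limma called 0 higher and 2 lower. The called higher genes became 1 with a pseudocount of 0.1 or 5, 23 on rescaling to the same total, 20 with array weights and 2 without control library 1 and mutant library 3 together, and 0 to 2 on leaving out 1 library each. The called lower genes became 0 with a pseudocount of 5, no filter, the replicate block or sex as a term, 1 on upper quartile scaling, 7 with array weights, 4 without those 2 libraries, and 0 to 3 on leaving out 1 library each. Rescaling to the same total moved the median of all genes by 0.32 and that of the members to 0.27, with 86 of 88 above 0, so that relative to all genes the members stood at -0.03, against -0.07 in the reported fit. A shift of all genes fixes the sign of small negative differences, so the reversals on that scale say nothing of the single genes, which were Ndufv3 (0.15), Ndufs6 (0.16), Ndufs8 (0.12), Sdhc (0.0067), Sdhd (0.18), Uqcrc2 (0.051), Uqcrh (0.24), Atp5j (0.11), Atp5b (0.18), Cox7a1 (0.27), Atp5g1 (0.23) and Atp5g2 (0.17). Array weights reversed Atp5b (0.082) and Cox7a1 (0.25), with a member median of 0.0066, and summing near copies reversed Ndufs5 (-0.10). Leaving out control library 1 and mutant library 3 together reversed Ndufa6 (-0.0062) and Cox4i1 (-0.078). Over the fits that leave out libraries, the log2 difference ran from -0.025 to 0.24 for Ndufa6, from -0.44 to 0.016 for Ndufs8, from -0.0087 to 0.25 for Ndufb9, from -0.078 to 0.19 for Cox4i1, from -0.30 to 0.0092 for Atp5b, from -0.33 to 0.17 for Cox7a1 and from -0.29 to 0.052 for Atp5g1. The cause was not tested for any of these beyond what the scaling or the libraries left out fix by construction. The deviations of same-numbered libraries from their group means correlated with r = -0.29, 0.33 and 0.32 for numbers 1 to 3. Mutant libraries 2 and 3 correlated best with the control library of the same number, and mutant library 1 with control library 2 (0.20). With so few libraries these values cannot show whether same-numbered libraries share an animal, litter or day. With the replicate block limma called 0 genes higher and 0 lower. In this balanced design the block cannot move the member median, which is -0.09 in both fits. Copies by coding sequence, their sums, the values within a sex and the fit without both low libraries were chosen after seeing the data. With 3 libraries a group, most intervals are too wide to show a difference under 1.5-fold, and low genes carry more counting error.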
